A study of Mus musculus with 8 samples.

Results

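The genes described here are 7 genes of the MHC class II pathway: the invariant chain Cd74, the class II chain genes H2-Aa, H2-Ab1 and H2-Eb1, the peptide exchange genes H2-DMa and H2-DMb1, and the transactivator Ciita. They were taken by symbol from a table of 24421 genes, and all 7 were among the 12744 genes with enough reads to be tested. They were selected on their read counts across the 4 groups, with the levels in all 8 libraries known, so those levels and the differences between groups are only described. The calls that a fit across all genes gave them are listed further on, and nothing is read from them. Each library was made from mouse HSPCs, haematopoietic stem and progenitor cells, that had been transduced and then recovered from primary transplanted mice. The 4 groups of 2 libraries were double-knockout (dKO) cells transduced with wild-type PRMT1 (dKOPRMT), dKO cells transduced with an enzymatically dead PRMT1 (dKOMut), dKO cells transduced with an empty vector (dKOEV) and wild-type cells transduced with an empty vector (WTEV). The series title names β-catenin and Hoxa9, which are taken here as the lost genes. PRMT1 is an arginine methyltransferase. Strain, age, the means of deletion and the host cells left after transplant were not stated. Nor is it stated whether the replicates of a group are different animals, so errors and p-values measure the spread between libraries, which may be technical.

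MHC class II molecules are pairs of an alpha and a beta chain that present peptides to CD4+ T cells. The invariant chain holds new pairs together and blocks their groove, lysosomal proteases cut it away, and H2-DM, itself a pair of an alpha and a beta chain, exchanges its last fragment for a peptide. Transcription of these genes is switched on by Ciita, which binds no DNA itself and docks on the factors RFX, CREB and NF-Y at the X and Y boxes before each gene. Dendritic cells, B cells and macrophages are the classical class II cells, and interferon gamma can induce Ciita in many others.

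The chain and DM genes lie together on chromosome 17 of GRCm38, in the order H2-DMa (34122832 to 34139101), H2-DMb1 (34153191 to 34160229), H2-Ab1 (34263227 to 34269418), H2-Aa (34282751 to 34287771) and H2-Eb1 (34305867 to 34316674). H2-Aa is on the minus strand and the others are on the plus strand. Ciita lies on chromosome 16 (10480072 to 10527640). RefSeq windows around the gene start, from 250 bases before to 50 after it, were at hand for 4 of the 7 members (H2-Aa, H2-Eb1, H2-DMa and H2-DMb1). The 150 bases before the start are shown because the boxes on which Ciita is known to dock lie in such windows (GRCm38.p6, RefSeq, gene strand, 5′ to 3′; H2-Aa at chr17:34287824-34287973 on the minus strand, and on the plus strand H2-Eb1 at chr17:34305717-34305866, H2-DMb1 at chr17:34153041-34153190, H2-DMa at chr17:34122682-34122831 and the scarcely read paralogue H2-Eb2 at chr17:34325525-34325674). Capitals mark the core of the Y box, TGATTGG, and the core of the X box, GNAAC, that stands 15 to 30 bases before it, while another GNAAC stays in lower case:
H2-Aa: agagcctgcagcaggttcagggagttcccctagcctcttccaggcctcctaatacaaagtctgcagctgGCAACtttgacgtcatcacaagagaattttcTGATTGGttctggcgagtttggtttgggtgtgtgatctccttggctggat
H2-Eb1: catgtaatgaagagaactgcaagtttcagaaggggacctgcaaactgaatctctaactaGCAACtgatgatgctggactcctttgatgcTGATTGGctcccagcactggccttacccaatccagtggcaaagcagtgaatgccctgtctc
H2-DMb1: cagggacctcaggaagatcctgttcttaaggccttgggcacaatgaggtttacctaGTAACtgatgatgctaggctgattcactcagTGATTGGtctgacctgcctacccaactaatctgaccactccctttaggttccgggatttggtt
H2-DMa: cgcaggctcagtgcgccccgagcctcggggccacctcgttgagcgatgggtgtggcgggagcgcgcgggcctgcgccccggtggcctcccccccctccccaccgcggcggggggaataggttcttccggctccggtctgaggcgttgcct
H2-Eb2: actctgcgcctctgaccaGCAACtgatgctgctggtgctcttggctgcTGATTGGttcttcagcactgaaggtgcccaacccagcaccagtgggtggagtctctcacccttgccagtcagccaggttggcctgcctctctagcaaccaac

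The 2 cores stood 26 bases apart at H2-Aa, 25 at H2-Eb1 and 26 at H2-DMb1, and 25 apart at H2-Eb2. Neither of the 2 listed starts of H2-DMa had the Y box core on either strand. Both windows lie near the 5′ end of the locus, and the rest of it, up to 34139101, was not searched. Of 32851 windows of 300 bases in the RefSeq table, searched on both strands, 7.82% held the Y box core and 0.469% held it 15 to 30 bases after an X box core, with no overlap between the cores. This pattern was written down after these windows had been read, and a match is a description of letters, not of a bound site.

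All 7 members had the same order of group means: highest in dKOPRMT, then dKOEV, then dKOMut, and lowest in WTEV. Together they took 0.226% and 0.233% of all counts in the dKOPRMT libraries, 0.18% in both dKOMut libraries, 0.195% and 0.207% in dKOEV, and 0.127% and 0.129% in WTEV. Their summed level was 2316 and 2261 CPM (counts scaled to library size with TMM factors) in dKOPRMT, 1792 and 1805 CPM in dKOMut, 1928 and 2074 CPM in dKOEV, and 1306 and 1283 CPM in WTEV. No 2 groups overlapped in that sum. In bulk RNA such as this, fewer cells of a type and less RNA per cell cannot be told apart.

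**Figure D1:**
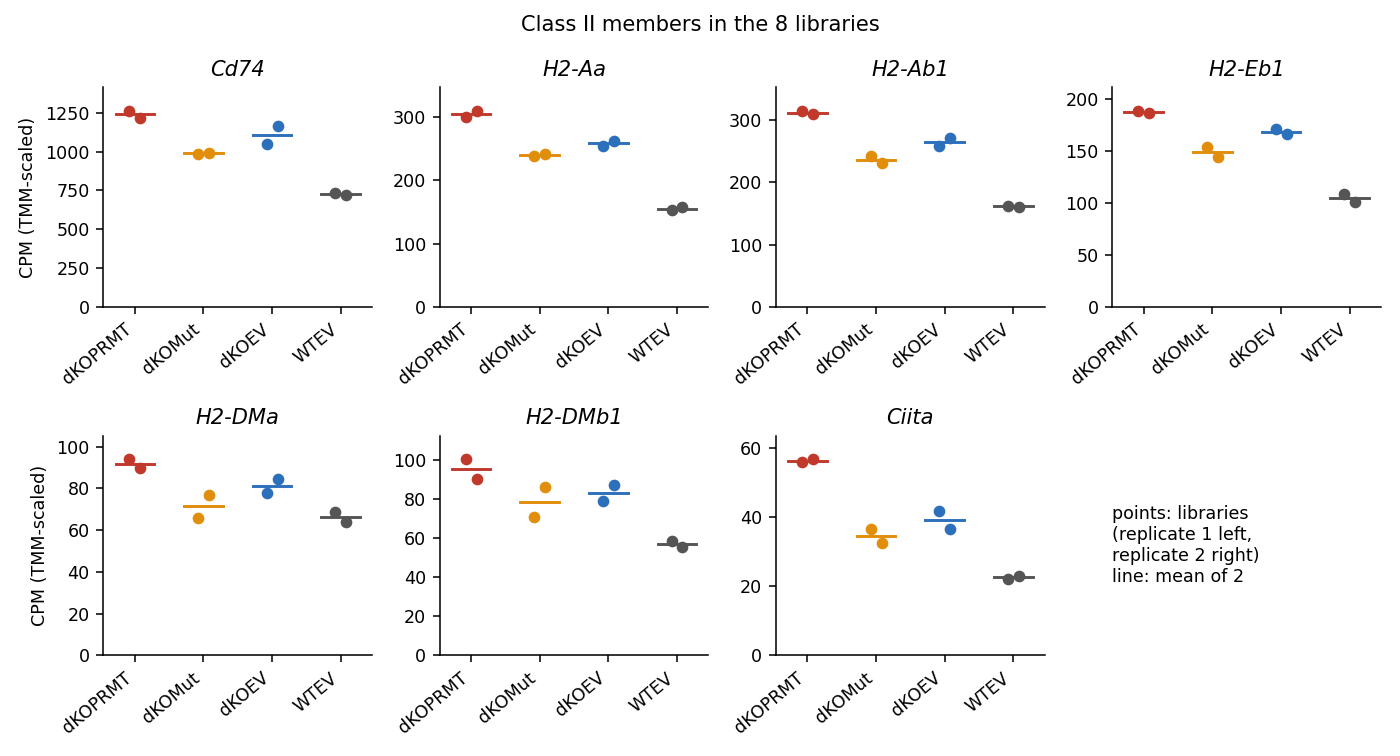
Level of each class II member in CPM, on an axis from 0, in the 2 libraries of each group (points), with the group mean (line). The dKOPRMT points lie above those of the other groups in all 7 panels, and WTEV is lowest except at H2-DMa, where the 65.7 and 77 CPM of dKOMut overlap the 68.8 and 63.7 CPM of WTEV.

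Ciita, the regulator of the other members, showed the widest differences of the 7 in every comparison but those of dKOMut with dKOEV and with WTEV. It had 55.9 and 56.7 CPM in dKOPRMT, 36.5 and 32.4 CPM in dKOMut, 41.8 and 36.5 CPM in dKOEV, and 22.2 and 23 CPM in WTEV. The dKOPRMT libraries stood well above all others and the WTEV libraries below all others, while dKOMut and dKOEV met at 36.5 CPM. The log2 difference was 0.53 ± 0.10 (SE) between dKOPRMT and dKOEV, -0.18 ± 0.10 between dKOMut and dKOEV, 0.71 ± 0.10 between dKOPRMT and dKOMut, and 0.79 ± 0.11 between dKOEV and WTEV. Between dKOMut and dKOEV it was -0.08 without dKOEV replicate 1, -0.27 without dKOEV replicate 2 and -0.09 without dKOMut replicate 2. The level in dKOPRMT was 2.49-fold that in WTEV.

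The class II chains followed at higher levels. H2-Aa, the alpha chain of the I-A pair, had 299.8 and 309.9 CPM in dKOPRMT, 238 and 241 CPM in dKOMut, 254 and 262 CPM in dKOEV, and 153 and 158 CPM in WTEV. H2-Ab1, its beta chain partner, had 315 and 309 CPM in dKOPRMT, 243 and 230.1 CPM in dKOMut, 257 and 271 CPM in dKOEV, and 162 and 161 CPM in WTEV. Both chains gave 4 groups without overlap, in the same order. Between dKOEV and WTEV the log2 difference was 0.73 ± 0.05 for H2-Aa and 0.71 ± 0.05 for H2-Ab1, which is 1.66-fold and 1.63-fold. Between dKOPRMT and dKOEV it was 0.24 ± 0.05 for each of the pair, and between dKOMut and dKOEV it was -0.11 ± 0.05 for H2-Aa and -0.16 ± 0.05 for H2-Ab1.

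H2-Eb1, the beta chain of the I-E pair, had 189 and 186 CPM in dKOPRMT, 154 and 145 CPM in dKOMut, 171 and 166 CPM in dKOEV, and 108 and 101 CPM in WTEV. Its groups did not overlap, and the log2 difference was 0.69 ± 0.06 between dKOEV and WTEV. Its partner gene is listed as the pseudogene H2-Ea-ps, as in strains that make no I-E, and had 0 counts in all 8 libraries, which allows up to 0.134 to 0.191 CPM per library at a floor of 3 counts (counting error only). The reads of H2-Eb1 thus stood beside no reads of an alpha chain for it.

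Cd74 is the invariant chain and, at the cell surface, a receptor of the cytokine MIF. It was the most abundant member, with 1263 and 1219 CPM in dKOPRMT, 985 and 993.5 CPM in dKOMut, 1047 and 1166 CPM in dKOEV, and 733 and 721 CPM in WTEV. The dKOEV libraries lay farther apart than those of any other group for this gene, at 1106 ± 84.5 CPM (SD, n = 2), against 727 ± 8.38 CPM in WTEV (SD, n = 2). The log2 difference was 0.61 ± 0.04 between dKOEV and WTEV and 0.33 ± 0.04 between dKOPRMT and dKOMut. Against dKOEV it was 0.17 ± 0.04 in dKOPRMT and -0.16 ± 0.04 in dKOMut, and the size of both depended on the dKOEV libraries. Without dKOEV replicate 1 they were 0.09 and -0.23, and without dKOEV replicate 2 they were 0.25 and -0.08. Cd74 lies on chromosome 18, its exons overlap the microRNA gene Mir5107, and the strand setting of the counting was not stated.

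The DM genes, whose products load peptides, lay between 55.4 and 100.2 CPM over the 8 libraries. H2-DMa had 93.9 and 89.7 CPM in dKOPRMT, 65.7 and 77 CPM in dKOMut, 77.9 and 84.5 CPM in dKOEV, and 68.8 and 63.7 CPM in WTEV. Only in this member did dKOMut and WTEV overlap, and its log2 difference between dKOEV and WTEV, 0.30 ± 0.08, was the smallest of the 7. H2-DMb1 had 100.2 and 90.1 CPM in dKOPRMT, 70.6 and 86.1 CPM in dKOMut, 78.8 and 87 CPM in dKOEV, and 58.6 and 55.4 CPM in WTEV, a log2 difference of 0.54 ± 0.08 between dKOEV and WTEV. The dKOMut replicates of both genes lay apart, with replicate 2 higher. Without dKOMut replicate 1 the log2 difference between dKOMut and dKOEV was -0.08 for H2-DMa and 0.06 for H2-DMb1, against -0.19 ± 0.08 and -0.09 ± 0.08 with it. The 2 genes also differed in their balance, since the level of H2-DMa per kilobase was 0.692 to 0.771 times that of H2-DMb1 in the 6 dKO libraries and 0.909 and 0.891 times in WTEV. Of the 50-base stretches in annotated transcripts of H2-DMb1, 22.7% also occur in its neighbour H2-DMb2, so counts of these 2 genes are uncertain where reads were shared.

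Per kilobase of gene length, the order of levels between members was the same in every group. In dKOPRMT it ran from Cd74 (877 ± 22.3 CPM per kb, SD, n = 2) through H2-Aa (285 ± 6.68), H2-Ab1 (262 ± 3.26), H2-Eb1 (112 ± 0.906), H2-DMb1 (74.1 ± 5.58) and H2-DMa (55.4 ± 1.77) to Ciita (9.39 ± 0.0895). In WTEV it ran through the same genes from 514 ± 5.92 CPM per kb for Cd74 to 3.77 ± 0.0956 CPM per kb for Ciita. In WTEV H2-DMb1 and H2-DMa were close neighbours, at 44.4 ± 1.77 and 39.9 ± 2.15 CPM per kb, with no overlap between their libraries. The I-A chains kept nearly equal levels, with 1.05 to 1.17 times as much H2-Aa as H2-Ab1 in all 8 libraries. Cd74 stood at 3.38 and 3.32 times H2-Ab1 in dKOPRMT, at 3.42 and 3.64 in dKOMut, at 3.43 and 3.63 in dKOEV and at 3.80 and 3.78 in WTEV. Ciita stood at 0.0353 and 0.0365 times H2-Ab1 in dKOPRMT, the highest values of that ratio, against 0.0268 to 0.0323 in the other 6 libraries.

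The fit across all genes gives the background for these differences. An edgeR quasi-likelihood test at an adjusted p of 0.05 called 4 of 7 members higher in dKOPRMT than in dKOEV (Ciita, Cd74, H2-Aa and H2-Ab1), where 5.96% of all tested genes were called higher and 8.67% lower. It called 3 of 7 lower in dKOMut than in dKOEV (Cd74, H2-Ab1 and H2-Eb1), where 7.08% of genes were called lower and 4.24% higher. All 7 were called higher in dKOPRMT than in dKOMut, where 1.43% of genes were called higher and 1.68% lower, and all 7 higher in dKOEV than in WTEV, where 8.44% of genes were called higher and 7% lower. Since the members were selected on these counts, nothing is read from these counts. The median log2 difference of the members was 0.20, -0.16, 0.35 and 0.69 in these 4 comparisons, beside 0.00 over all tested genes in each. TMM scaling itself holds the value over all genes near 0.00. Both libraries lay above both of the other group for all 7 members in dKOPRMT against dKOEV, in dKOPRMT against dKOMut and in dKOEV against WTEV, which held for 25.8%, 22.3% and 26.8% of all tested genes, with 26.4%, 21.8% and 26% the other way. Both lay below for 5 of 7 in dKOMut against dKOEV, which held for 24.3% of genes, with 23.9% above, and H2-DMb1 and Ciita overlapped. Without dKOEV replicate 2, 0 members were called lower in dKOMut, and without dKOEV replicate 1 or dKOPRMT replicate 1 Cd74 was not called in dKOPRMT against dKOEV. In dKOPRMT against dKOMut, H2-DMb1 lost its call in DESeq2 and without dKOMut replicate 1, dKOPRMT replicate 1 or dKOPRMT replicate 2, and H2-DMa without dKOMut replicate 1 or dKOPRMT replicate 1. The log2 difference of H2-DMb1 there was 0.28 with all libraries, 0.14 without dKOMut replicate 1 and 0.43 without dKOMut replicate 2. In dKOEV against WTEV, H2-DMa lost its call without WTEV replicate 2 or dKOEV replicate 2. Comparisons against dKOEV share its 2 libraries, so the opposite signs of the members there are not 2 separate results.

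**Figure D2:**
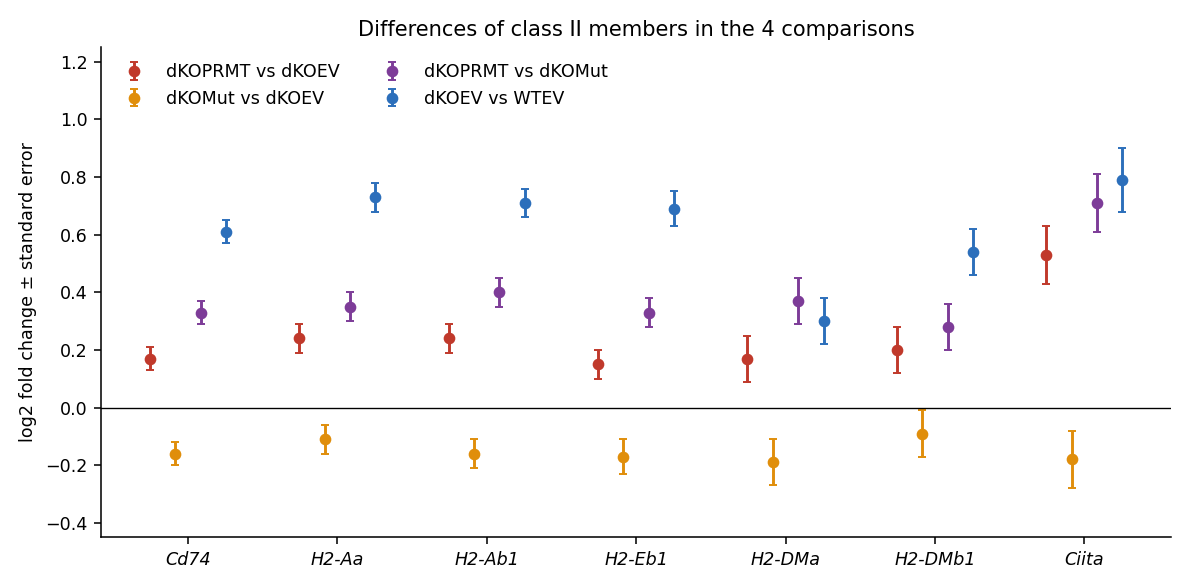
Log2 fold change with its standard error (bars) of each member in the 4 comparisons, n = 2 libraries a group. Values of dKOPRMT against dKOEV lie between 0.15 and 0.53, those of dKOMut against dKOEV between -0.19 and -0.09, and those of dKOEV against WTEV between 0.30 and 0.79.

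Set directly against WTEV, a comparison added after the data were seen, the dKO cells with PRMT1 had a log2 difference of 1.32 ± 0.10 for Ciita, 0.97 ± 0.05 for H2-Aa, 0.95 ± 0.05 for H2-Ab1, 0.84 ± 0.06 for H2-Eb1, 0.77 ± 0.04 for Cd74, 0.74 ± 0.08 for H2-DMb1 and 0.47 ± 0.08 for H2-DMa. The dKO cells with the dead mutant had 0.61 ± 0.11 for Ciita and 0.44 ± 0.04 for Cd74, and from 0.10 ± 0.08 for H2-DMa to 0.63 ± 0.05 for H2-Aa among the others. Sex-linked transcripts also set WTEV apart. Xist was at 159 and 121 CPM in WTEV and at 0 counts in the 6 dKO libraries, which in turn held 58.2 to 68.5 CPM of the Y-linked Ddx3y, against 0 counts in WTEV. In any comparison with WTEV, sex of the source and genotype cannot be told apart. Prmt1 reads were at 981 and 976 CPM in dKOPRMT, 1744 and 1758 CPM in dKOMut, and 188 to 194 CPM in the empty vector groups. The genotype of dKOMut replicate 2 is labelled as a mutant of PRMT2, unlike that of replicate 1, and its Prmt1 level was as high. Hoxa9 had 3.76 and 1.87 CPM in dKOPRMT, 4.85 and 1.95 CPM in dKOMut, 5.79 and 3.63 CPM in dKOEV, and 18.2 and 17.2 CPM in WTEV. Ctnnb1, the β-catenin gene, had 372 and 371 CPM in dKOPRMT, 360.1 and 368 CPM in dKOMut, 391 and 379 CPM in dKOEV, and 444 and 455 CPM in WTEV, so reads of both were still present in dKO libraries.

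The other class II loci had few reads. H2-DMb2, the second DM beta chain, had 10.8 and 11.4 CPM in dKOPRMT, 10.4 and 9.39 CPM in dKOMut, 11.2 and 11 CPM in dKOEV, and 4.9 and 6.73 CPM in WTEV. It was higher in dKOEV than in WTEV at 0.94 ± 0.21 (adjusted p = 0.0011), a call that was lost without WTEV replicate 1 (adjusted p = 0.0773). The chains of DO, the inhibitor of DM that is made mainly in B cells, were scarce. H2-Oa, whose exons overlap the gene BC051537, had 2.31 and 2.23 CPM in dKOPRMT, 3.17 and 2.5 CPM in dKOMut, 3.75 and 4.66 CPM in dKOEV, and 2.94 and 2.8 CPM in WTEV. H2-Ob had 3.21 and 3.59 CPM in dKOPRMT, 1.96 and 1.57 CPM in dKOMut, 5.03 and 1.48 CPM in dKOEV, and 4.26 and 4.95 CPM in WTEV, with the dKOEV libraries at both ends of the range of all 8. H2-Eb2 stayed between 0.251 and 1.18 CPM. Of the 4 tested loci outside the members, edgeR and DESeq2 each called 1 in dKOEV against WTEV and 0 in the other 3 comparisons, where 1 had an unadjusted p under 0.05 in dKOPRMT against dKOEV, 0 in dKOMut against dKOEV and 1 in dKOPRMT against dKOMut.

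The factors that dock at the X and Y boxes made a short list, so nothing is read from its counts. Of the 10 genes for RFX, NF-Y, CREB and their co-activators, 0 were called in dKOPRMT against dKOEV, 1 in dKOMut against dKOEV, 0 in dKOPRMT against dKOMut and 0 in dKOEV against WTEV, where 14.6%, 11.3%, 3.11% and 15.4% of all tested genes were called in either direction. At an unadjusted p under 0.05 edgeR had 0, 1, 2 and 0 in these comparisons, and DESeq2 called 0, 1, 0 and 0. Rfx5, the large RFX subunit, had 27.5 and 27.8 CPM in dKOPRMT, 31.6 and 23.2 CPM in dKOMut, 21.5 and 25.1 CPM in dKOEV, and 22.8 and 22.2 CPM in WTEV. Its log2 difference of 0.24 ± 0.13 between dKOPRMT and dKOEV did not pass (adjusted p = 0.26), nor did those of the NF-Y subunit Nfyb (0.11 ± 0.09, adjusted p = 0.51) and of Creb1 (0.00 ± 0.07, adjusted p = 0.99). The histone acetyltransferase Ep300 was the gene called, at 0.20 ± 0.06 in dKOMut against dKOEV (adjusted p = 0.020), and lost that call without dKOEV replicate 2 or either dKOMut library (adjusted p = 0.0615, 0.0953 and 0.0688).

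Genes known to act upstream of Ciita moved in both directions. The list held 12 tested genes, of which 2 rose and 1 fell in dKOPRMT against dKOEV, 1 rose and 3 fell in dKOMut against dKOEV, 3 rose and 1 fell in dKOPRMT against dKOMut, and 5 rose and 1 fell in dKOEV against WTEV. Ifngr1, the ligand-binding chain of the interferon gamma receptor, had 312 and 310.4 CPM in dKOPRMT, 256 and 259 CPM in dKOMut, 242 and 251 CPM in dKOEV, and 214 and 212 CPM in WTEV. It rose in dKOPRMT against dKOEV (0.33 ± 0.04, adjusted p = 4.8e-07), in dKOPRMT against dKOMut (0.28 ± 0.04, adjusted p = 6.5e-05) and in dKOEV against WTEV (0.21 ± 0.04, adjusted p = 0.00065), but its difference between dKOMut and dKOEV was 0.06 ± 0.04 (adjusted p = 0.48). With each library left out in turn, Ifngr1 alone of this list kept its call in dKOPRMT against dKOMut throughout. Some calls of the list in dKOMut against dKOEV and in dKOEV against WTEV were also lost.

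Irf4, an interferon regulatory factor of dendritic and lymphoid cells, had 16.3 and 19.9 CPM in dKOPRMT, 10.9 and 12.2 CPM in dKOMut, 19.5 and 18.7 CPM in dKOEV, and 7.4 and 8.94 CPM in WTEV. It rose in dKOEV against WTEV (1.23 ± 0.17, adjusted p = 1.4e-06) and fell in dKOMut against dKOEV (-0.73 ± 0.17, adjusted p = 0.0019). Irf8, which directs monocyte and dendritic cell fate, ran differently, with 134 and 131 CPM in dKOPRMT, 153 and 153 CPM in dKOMut, 108 and 108 CPM in dKOEV, and 139 and 139 CPM in WTEV. It fell in dKOEV against WTEV (-0.36 ± 0.06, adjusted p = 8.8e-06) and rose in both dKOPRMT (0.29 ± 0.06, adjusted p = 2e-04) and dKOMut (0.50 ± 0.06, adjusted p = 1.3e-08) against dKOEV. Between dKOPRMT and dKOMut, Irf4 was higher at 0.65 ± 0.16 (adjusted p = 0.017) and Irf8 lower at -0.21 ± 0.06 (adjusted p = 0.025). The call of Irf8 was lost without any 1 of the 4 libraries (adjusted p = 0.121 to 0.245) and that of Irf4 without either dKOMut library or dKOPRMT replicate 2 (adjusted p = 0.187, 0.0552 and 0.355).

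The next list held lysosomal genes that process antigen or cut the invariant chain, with the membrane ubiquitin ligase genes March1 and March8. Of 9 tested, 6 fell and 0 rose in dKOPRMT against dKOEV, and 7 fell and 0 rose in dKOMut against dKOEV. The cysteine protease gene Ctsb had 1110.1 and 1086 CPM in dKOPRMT, 1061 and 1099.9 CPM in dKOMut, 1814 and 1948 CPM in dKOEV, and 2259 and 2264 CPM in WTEV. It fell by 0.78 ± 0.03 on the log2 scale in dKOPRMT (adjusted p = 5.8e-19) and by 0.80 ± 0.03 in dKOMut (adjusted p = 1.4e-19) against dKOEV. Legumain, Lgmn, had 121 and 110.3 CPM in dKOPRMT, 107 and 108 CPM in dKOMut, 236 and 240.4 CPM in dKOEV, and 322 and 331 CPM in WTEV, and fell by 1.05 ± 0.05 and 1.15 ± 0.05 (adjusted p = 1.3e-17 and 7e-19) in the same comparisons. Ctss, which makes the last cuts in the invariant chain of most class II cells, fell by 0.52 in dKOPRMT (adjusted p = 5.4e-14) and by 0.40 in dKOMut (adjusted p = 3.7e-11).

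In dKOEV against WTEV 4 of these 9 genes fell and 1 rose. Ctsl, the protease used in thymic epithelium, fell by 1.15 ± 0.06 (adjusted p = 1.3e-17), Lgmn by 0.46 ± 0.05 (adjusted p = 9.8e-09) and Ctsb by 0.27 ± 0.03 (adjusted p = 2.3e-07). Ctsd fell by 0.10 ± 0.03 (adjusted p = 0.046) and lost that call without WTEV replicate 1 (adjusted p = 0.413) and under 6 other settings. March1, the ubiquitin ligase that sends class II molecules to degradation, rose by 0.57 (adjusted p = 5e-06). In dKOPRMT against dKOMut, Ifi30, the thiol reductase of the class II compartment, was higher by 0.29 (adjusted p = 0.00076) and Ctsd lower, at -0.19 ± 0.03 (adjusted p = 0.00038). In that comparison Ctsb (0.02 ± 0.03, adjusted p = 0.86) and Lgmn (0.10 ± 0.05, adjusted p = 0.41) did not pass the threshold. The summed level of the 9 genes was 3383 to 3453 CPM in dKOPRMT, 3536 to 3574 CPM in dKOMut, 5074 to 5367 CPM in dKOEV and 5917 to 5959 CPM in WTEV.

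**Figure D3:**
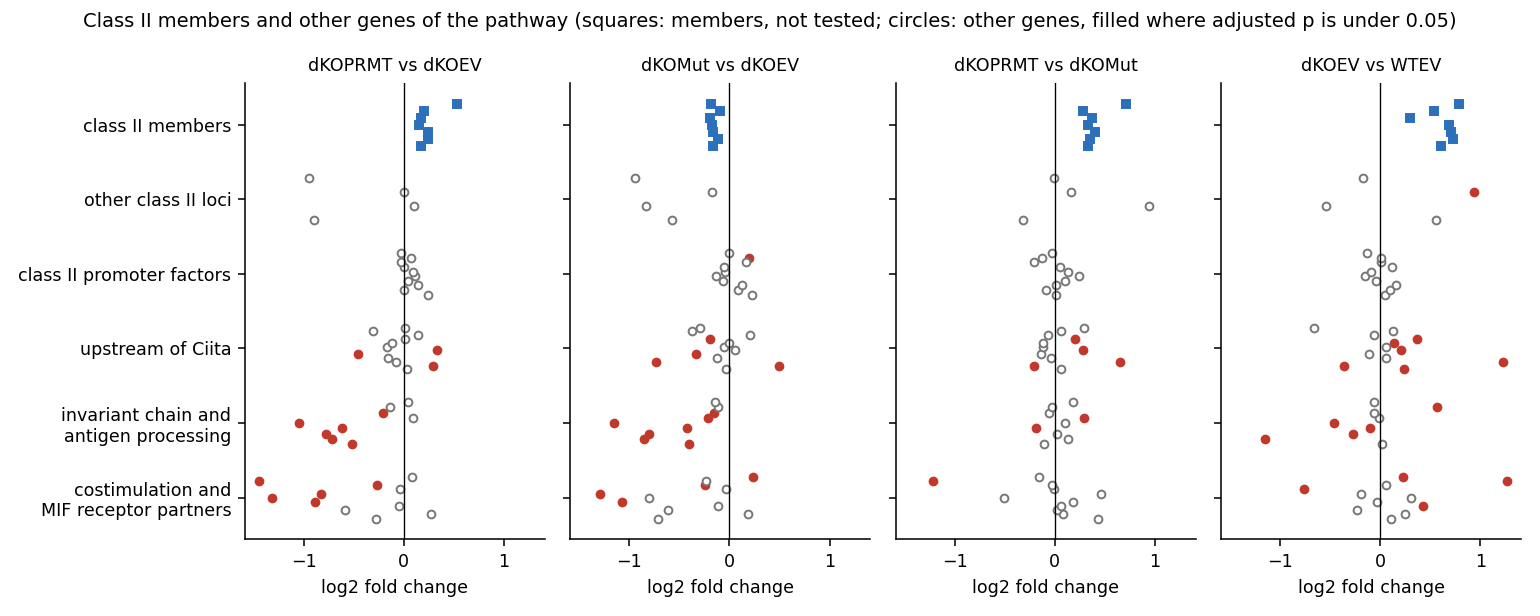
Log2 fold change of each tested gene, by list, in the 4 comparisons. Squares are class II members, shown without their calls, and circles are other genes of the pathway, filled where adjusted p is under 0.05. In dKOPRMT against dKOEV the 7 members lie right of 0 while 6 of 9 genes of the antigen processing list fell.

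The co-stimulatory and inhibitory ligands and the partners of Cd74 as a MIF receptor made the last list. Of 11 tested, 0 rose and 5 fell in dKOPRMT against dKOEV, 1 rose and 3 fell in dKOMut against dKOEV, 0 rose and 1 fell in dKOPRMT against dKOMut, and 3 rose and 1 fell in dKOEV against WTEV. Mif had 206 and 213 CPM in dKOPRMT, 208 and 213 CPM in dKOMut, 212 and 219 CPM in dKOEV, and 368 and 363 CPM in WTEV. It fell by 0.76 ± 0.05 in dKOEV against WTEV (adjusted p = 1.8e-15), the comparison in which its receptor gene Cd74 stood 0.61 ± 0.04 higher. Cxcr2, a chemokine receptor that also binds MIF, had 24.7 and 28.7 CPM in dKOPRMT, 61 and 63.2 CPM in dKOMut, 75.7 and 70.1 CPM in dKOEV, and 30 and 30.3 CPM in WTEV. It rose by 1.27 ± 0.09 in dKOEV against WTEV (adjusted p = 4.7e-13) and fell by 1.45 ± 0.09 in dKOPRMT against dKOEV (adjusted p = 1.4e-14). Cd44, the signalling partner of Cd74, fell in dKOPRMT (-0.27 ± 0.04, adjusted p = 3.2e-06) and in dKOMut (-0.24 ± 0.04, adjusted p = 2.6e-05) against dKOEV. The ligand of the inhibitory receptor PD-1, Cd274, fell by 0.89 ± 0.09 (adjusted p = 4.6e-10) and 1.07 ± 0.09 (adjusted p = 6.9e-12) in those comparisons.

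Over the 5 lists, 46 genes outside the members were tested, of which 2 rose and 12 fell in dKOPRMT against dKOEV, 3 rose and 13 fell in dKOMut against dKOEV, 4 rose and 3 fell in dKOPRMT against dKOMut, and 10 rose and 6 fell in dKOEV against WTEV. The calls that held under all 14 alternative settings numbered 12 of 14, 12 of 16, 4 of 7 and 11 of 16. Over all tested genes 14.6%, 11.3%, 3.11% and 15.4% were called in either direction in these comparisons. The lists are short and were written with a report on these data at hand, so their shares are given as counts only.

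Markers of the classical class II cells were measured in the same libraries. B cell genes were nearly absent, with a summed level over 10 genes of 11.6 to 12.7 CPM in dKOPRMT, 13.6 to 14.0 CPM in dKOMut, 9.36 to 10.5 CPM in dKOEV and 14.6 to 15.8 CPM in WTEV, most of it Cd79b. Pax5 and Ebf1, which define B cells, had 0 counts in all 6 dKO libraries, and edgeR and DESeq2 called 0 of the 4 tested B cell genes in all 4 comparisons. At an unadjusted p under 0.05 there was 1 of them in dKOPRMT against dKOMut, 1 in dKOEV against WTEV and 0 in the other comparisons. Monocyte and macrophage genes were abundant, with a summed level over 14 genes of 2745 to 2795 CPM in dKOPRMT, 2564 to 2666 CPM in dKOMut, 2709 to 2945 CPM in dKOEV and 3198 to 3361 CPM in WTEV. Of 13 tested, 1 rose and 9 fell in dKOPRMT against dKOEV, 1 rose and 10 fell in dKOMut against dKOEV, 6 rose and 0 fell in dKOPRMT against dKOMut, and 0 rose and 6 fell in dKOEV against WTEV. Over all tested genes 14.6%, 11.3%, 3.11% and 15.4% were called in either direction in these comparisons. The class II members stood lower in dKOMut against dKOEV and higher in the other comparisons. The part of these markers in the class II differences was not tested.

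Dendritic cell genes gave a summed level over 14 genes of 132.5 to 141 CPM in dKOPRMT, 119 to 127 CPM in dKOMut, 134 to 139 CPM in dKOEV and 113 to 127 CPM in WTEV. Of 14 tested, 1 rose and 2 fell in dKOPRMT against dKOEV, 2 rose and 5 fell in dKOMut against dKOEV, 2 rose and 0 fell in dKOPRMT against dKOMut, and 4 rose and 2 fell in dKOEV against WTEV. Over all tested genes 14.6%, 11.3%, 3.11% and 15.4% were called in either direction in these comparisons. DESeq2 called 2 of the 14 higher and 3 lower in dKOMut against dKOEV, and as many as edgeR in the others. The most abundant of the 14 were Ly75 (19.1 to 47.8 CPM over the 8 libraries), Flt3 (15.4 to 35.1 CPM), Mgl2 (13.1 to 23.6 CPM), Itgax (13.7 to 23.5 CPM) and Clec10a (9.28 to 16.3 CPM). Zbtb46, a factor of classical dendritic cells, lay between 0.431 and 1.72 CPM, and Xcr1 and Clec9a, which mark the subset known as cDC1, between 0.253 and 1.85 CPM and between 0.0932 and 1.03 CPM. The part of dendritic cells in the class II levels was not tested. Stem and progenitor markers were uneven, with Kit between 138 and 171 CPM and Cd34 between 105 and 162 CPM. Slamf1 lay between 0.377 and 1.66 CPM and Procr between 1.15 and 4.21 CPM. Over the 10 genes of this list the summed level was 10027 to 10065 CPM in dKOPRMT and 8796 to 9059 CPM in dKOMut. It was 7241 to 7275 CPM in dKOEV and 7020.5 to 7181 CPM in WTEV. Most of it in every group was Mpo, at 5784 to 9081 CPM. Of the 10 markers in that list 3 rose and 5 fell in dKOPRMT against dKOEV, 3 rose and 3 fell in dKOMut against dKOEV, 1 rose and 2 fell in dKOPRMT against dKOMut, and 2 rose and 4 fell in dKOEV against WTEV.

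**Figure D4:**
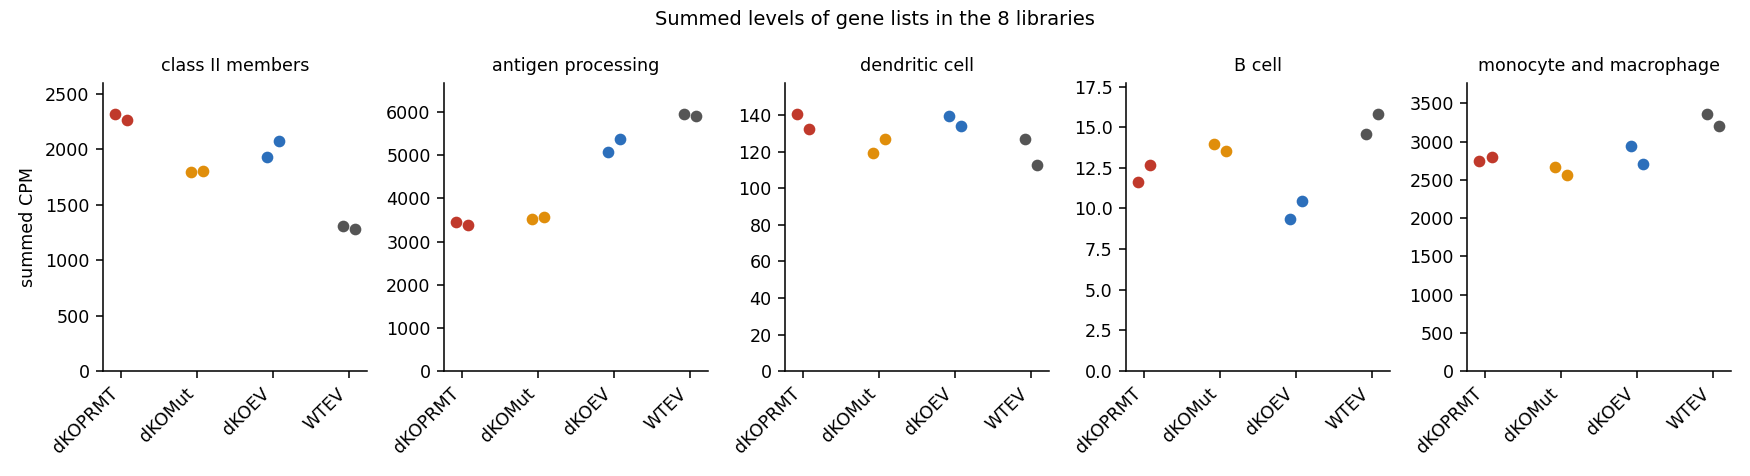
Summed CPM, on axes from 0, of the class II members, the antigen processing genes and the markers of dendritic cells, B cells and monocytes and macrophages in the 2 libraries of each group (points). The members are lowest in WTEV (1283 and 1306 CPM), where the antigen processing genes (5917 and 5959 CPM) and the monocyte and macrophage markers (3198 and 3361 CPM) are highest.

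Genes were also ranked by how closely their level over the 8 libraries ran with that of Cd74, as the root mean square difference of log2 CPM centred on each gene's mean, among 9944 genes that averaged at least 5 CPM. H2-Eb1 ranked 1 (0.0675), H2-Ab1 ranked 2 (0.0698), H2-DMb1 ranked 5 (0.0799) and H2-Aa ranked 7 (0.0881), while H2-DMa ranked 99 (0.15) and Ciita, with its wider differences, ranked 845 (0.219). The closest genes outside the members were Lrp4 (0.0745), Plxnd1 (0.0749), Pxylp1 (0.0832), Sema4a (0.0891) and Jdp2 (0.0956). Plxnd1, a plexin receptor, had 289 and 285 CPM in dKOPRMT, 235 and 232 CPM in dKOMut, 249.7 and 269 CPM in dKOEV, and 196 and 184 CPM in WTEV. Lrp4, an agrin receptor, had 21.2 and 20.7 CPM in dKOPRMT, 15.8 and 15.2 CPM in dKOMut, 16.6 and 18.9 CPM in dKOEV, and 12.7 and 10.4 CPM in WTEV. Sema4a, a semaphorin, had 269.5 and 269 CPM in dKOPRMT, 227 and 237 CPM in dKOMut, 210.1 and 231 CPM in dKOEV, and 166 and 163 CPM in WTEV. These ranks describe 8 libraries in 4 groups. The members were selected on the same levels, so nothing is read from their own ranks. Sema4a did not share the group order of the members, since its dKOMut mean was above its dKOEV mean. Pxylp1 and Jdp2 also lacked the lower dKOMut mean of the members, and their dKOMut and dKOEV libraries overlapped. Pxylp1 had 65.4 and 63.7 CPM in dKOMut and 60.5 and 66.2 CPM in dKOEV. For Jdp2 these levels were 34.7 and 38.2 CPM in dKOMut and 36.6 and 36.1 CPM in dKOEV.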

How the data were processed

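RNA was measured in 8 HSPC libraries (4 groups of 2, from the sample titles, since the cell type labels call every library dKO). Per the labels' protocols, libraries were made with a directional kit. The authors deposited 1 table of raw read counts per gene with gene lengths; per the submitters' processing notes it was made with Trim Galore 0.6.6, STAR 2.7.6a and featureCounts on GRCm38 (mm10), while its strand setting and annotation were not stated. Totals were 15531344 to 22329749 counts. In R 4.3.3, edgeR 4.0.16 (filterByExpr, TMM, robust quasi-likelihood test, group as the only term, all 8 libraries, Benjamini-Hochberg over all 12744 genes tested, threshold 0.05) gave fold changes, standard errors (from fold change and F) and adjusted p-values. CPM use TMM-scaled library sizes. The steps were tested on simulated data. Replicates differed by more than sampling noise (chi-square per degree of freedom 3.63 to 6.39). Alternatives were DESeq2 size factors, other filters, DESeq2 1.42.0, the compared groups alone, a replicate block and each library left out.

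The members, the lists and the named genes were chosen with earlier results of these data known. Named genes were all members, the other class II loci, up to 4 genes with the smallest p in each further list, and the 5 genes nearest to Cd74; Ctss, March1, Ifi30 and the cell type markers named were chosen for their role, after their values were seen. A gene that this rule names is not reported here. Transcripts sharing stretches came from GENCODE M21.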

Additional observations from a re-analysis of the deposited data

How the results depend on the processing

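In the 4 comparisons no member that had been called changed sign under the 14 alternatives; H2-DMb1, not called in dKOMut against dKOEV, was at 0.06 there without dKOMut replicate 1. Of the members' log2 differences under 14 alternatives, 367 moved by less than the spread between replicates and 25 by more, in each case with a library left out. With 1 library left out, the genes called ranged from 1058 to 1945 in dKOPRMT against dKOEV (1133 and 1058 without dKOPRMT replicates 1 and 2), from 171 to 550 in dKOPRMT against dKOMut (171 and 205 without dKOPRMT replicates 1 and 2, 244 and 240 without dKOMut replicates 1 and 2) and from 1149 to 1996 in dKOEV against WTEV (1209 and 1149 without WTEV replicates 1 and 2). Other pathway genes called in dKOPRMT against dKOMut ranged from 4 to 9, with 4 without either dKOMut library or dKOPRMT replicate 2. A library left alone in its group was assumed to vary like the other groups.

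No shift shared by libraries of the same replicate number was seen between groups (correlation of deviations -0.04 to 0.00 over 12744 genes). This cannot show whether libraries were matched by animal or preparation. With a replicate block the genes called were 1853, 1414, 403 and 1952, and the other pathway genes called were 14, 16, 7 and 16, in dKOPRMT against dKOEV, dKOMut against dKOEV, dKOPRMT against dKOMut and dKOEV against WTEV. The number of members called over the 14 alternatives was 3 to 5, 0 to 3, 5 to 7 and 6 to 7 in these comparisons, and DESeq2 called 4, 2, 6 and 7.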

Other observations

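Single dendritic cell genes moved in opposite directions beside the class II members. Ccr7, the homing receptor of mature dendritic cells, had 4.31 and 5.52 CPM in dKOPRMT, 5.27 and 4.02 CPM in dKOMut, 11.3 and 15 CPM in dKOEV, and 7 and 5.71 CPM in WTEV. It rose by 1.05 ± 0.23 in dKOEV against WTEV and fell by 1.43 ± 0.24 in dKOPRMT against dKOEV, and was at 0.353 times dKOEV in dKOMut. Fscn1, the actin bundler of mature dendritic cells, ran alike (1.02 ± 0.24, -0.96 ± 0.23 and -0.75 ± 0.23). The C-type lectin gene Cd209a had 5.12 and 4.81 CPM in dKOPRMT, 3.92 and 5.37 CPM in dKOMut, 1.08 and 2.24 CPM in dKOEV, and 0.784 and 0.808 CPM in WTEV. Its rise against dKOEV was 1.54 ± 0.38 in dKOPRMT and 1.44 ± 0.39 in dKOMut. Mgl2, another lectin gene, was higher in dKOPRMT than in dKOMut by 0.79 ± 0.14, at 23.4 and 23.6 CPM against 14.1 and 13.1 CPM. Each difference given here had an adjusted p between 1.6e-05 and 0.027 (edgeR). These genes were picked from the list of markers after their values were seen. Other markers of the list went against Ccr7 and Fscn1 in dKOEV and WTEV. Flt3 averaged 16.4 CPM in dKOEV and 33.3 CPM in WTEV, and Ccr9 averaged 1.15 and 3.86 CPM. Of the 14 markers, edgeR called 4 higher and 2 lower in dKOEV against WTEV.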
